A study of Rattus norvegicus with 4 samples.

Results

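Plasmin dissolves fibrin and cuts matrix proteins, and cells set how much of it forms around them. The tissue and urokinase plasminogen activators (Plat and Plau) turn plasminogen into plasmin, the urokinase receptor (Plaur) holds urokinase at the cell surface, and serpins such as Serpine2 (protease nexin 1) block these proteases and thrombin. Clotting is set at the same surface, where tissue factor (F3) starts it, Tfpi blocks that start, and thrombomodulin (Thbd) with the endothelial protein C receptor (Procr) turn thrombin toward activation of the anticoagulant protein C. Tfpi2 is a related Kunitz-type inhibitor of plasmin and other proteases in the matrix. These 9 genes were described here by the probe sets of the deposited array table whose platform annotation gives exactly 1 gene symbol, which gave 14 of 31042 non-control probe sets, or 9 of 14217 genes with such a probe set.

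Smooth muscle cells, which contract the artery wall, had been cultured from the aorta of Sprague-Dawley rats. All samples had spent 5 days with 10% serum and then 3 days without serum. The IL-1b group (2 samples) then received 2.5 ng/mL of interleukin-1 beta, a cytokine of inflammation, and the vehicle group (2 samples) received 0.1% BSA, in both cases over 24 hours. Each sample had its own single-colour Affymetrix array, and the only comparison is IL-1b against vehicle; the labels do not say whether replicates were separate cultures. P-values therefore cover the spread among these 4 samples alone, and that spread may be technical.

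The array of IL-1b replicate 1 differed from the rest in its controls, and from IL-1b replicate 2 in the brightest probe sets. Its bacterial hybridisation controls read 3.50 times their vehicle mean, against 0.954 times on IL-1b replicate 2. A background was taken for each array from 27 dim bacterial control probe sets (their 95th percentile), and it was 76.7 and 18.8 on IL-1b replicates 1 and 2, against 29.4 and 26.9 on vehicle replicates 1 and 2. Among the 67 probe sets at 10000 or more on IL-1b replicate 2, the median reading on IL-1b replicate 1 was 1.95 times as high. That median was 1.20 times among the 638 at 3000 or more and 0.979 times among the 2532 at 1000 or more. Over all non-control probe sets the log2 values of the IL-1b arrays correlated at 0.902, and those of the vehicle arrays at 0.948. IL-1b replicate 2 correlated with vehicle replicates 1 and 2 at 0.909 and 0.920, and IL-1b replicate 1 at 0.854 and 0.859. By this measure IL-1b replicate 2 was no more like its own replicate than like the vehicle arrays. Of 8 smooth muscle markers, 7 were above background on all 4 arrays, and their summed intensity was 8746 to 11731 with IL-1b and 31702 to 32279 with vehicle. By the test below 7 of the 8 passed, all of them lower with IL-1b. The largest of these falls were in Myocd, Lmod1 and Cnn1 (log2 fold changes -3.69, -3.54 and -2.90). Since Thbd, Procr and Tfpi are best known from endothelium, its markers were read too. None of 10 measured endothelial markers was above background on all 4 arrays, and 6, among them Pecam1, Vwf, Tie1 and Cldn5, were below it on every array. Above background were 0 and 4 of the markers on IL-1b replicates 1 and 2, and 3 on each vehicle array. Esam, Tek and Erg were above it on both vehicle arrays and on IL-1b replicate 2. Esam read 76.6 and 37.3 with IL-1b, against 74.7 and 76.6 with vehicle, and Tek 49.6 and 28.2, against 39.2 and 50.6. The summed intensity of the endothelial markers was 170 to 359 with IL-1b and 319 to 395 with vehicle. Of the endothelial markers 1 passed the test below, Erg, which was lower with IL-1b, at 19.9 and 28.0, against 147 and 191 with vehicle (log2 fold change -2.57, adjusted p = 0.012). Of 9 measured leukocyte markers 1, Cd14, was above background on all 4 arrays, and Itgam was below it on every array. On IL-1b replicates 1 and 2, 5 and 6 of the 9 were above it, against 3 and 2 on vehicle replicates 1 and 2. Csf1r was lower on both IL-1b arrays, at 16.7 and 28.8, against 55.5 and 49.8 with vehicle, and was not tested. The summed intensity of the 9 leukocyte markers was 1831 to 2058 with IL-1b and 701 to 792 with vehicle, with Lyz2 at 685 and 969 against 3.83 and 10.2. Lyz2 was the 1 leukocyte marker that passed the test (log2 fold change 6.08, adjusted p = 2.2e-04). It was below background on the vehicle arrays, so that size rests on values below background. With vehicle set at background, the change of Lyz2 was at least 29.0-fold. Of 6 fibroblast markers 4 were above background on all 4 arrays, and their summed intensity was 2632 to 3134 with IL-1b and 3722 to 3726 with vehicle. Among them Dpt (313 and 288 against 19.2 and 31.3 with vehicle) and Pdgfra (148 and 146 against 31.7 and 46.3) rose, and Col14a1 (1278 and 1221 against 2896 and 2940.0) fell, with adjusted p = 0.0018, 0.031 and 0.0016. None of 4 measured platelet markers was above background on all 4 arrays. The part of these differences in the results below was not tested. In cultures measured as a whole, fewer cells that make a transcript and less of it in each cell cannot be told apart.

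RefSeq promoter windows (assembly GRCr8) were matched by symbol for 6 of the 9 genes, in 7 windows, and the 250 bases before each start were searched on both strands for 5 motifs. Plat, Thbd and F3 are named only. Shown first, 5′ to 3′ with matches in capitals, are the windows of Plaur and Serpine2, which both rose, and that of Tfpi2, whose window was the 1 of 7 with a match to the NF-kB consensus.
Plaur, chr1:89181113-89181362, plus strand: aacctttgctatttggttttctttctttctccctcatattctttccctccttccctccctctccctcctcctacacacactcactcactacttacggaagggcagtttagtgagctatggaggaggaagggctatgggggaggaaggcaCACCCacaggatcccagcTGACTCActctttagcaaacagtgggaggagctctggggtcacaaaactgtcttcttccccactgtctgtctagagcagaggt
Serpine2, chr9:88637203-88637452, minus strand: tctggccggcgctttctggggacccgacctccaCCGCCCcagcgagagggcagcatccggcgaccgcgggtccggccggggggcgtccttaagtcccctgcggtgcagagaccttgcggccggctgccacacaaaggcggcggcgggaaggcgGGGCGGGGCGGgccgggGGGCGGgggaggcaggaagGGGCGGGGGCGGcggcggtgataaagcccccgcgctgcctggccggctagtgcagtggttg
Tfpi2, chr4:32941277-32941526, minus strand: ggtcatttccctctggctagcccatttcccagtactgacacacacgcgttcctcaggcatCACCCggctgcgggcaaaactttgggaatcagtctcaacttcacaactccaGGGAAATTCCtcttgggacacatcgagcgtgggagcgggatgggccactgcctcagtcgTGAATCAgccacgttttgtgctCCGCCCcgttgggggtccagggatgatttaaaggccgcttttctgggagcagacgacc

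The capitals mark the AP-1 motif TGANTCA, the GC box GGGCGG, the CACCC box CACCC and the NF-kB consensus, and a TATA box (TATAAA) was also searched. The Plaur window held 1 AP-1 match, at bases -83 to -77 before the start, and 1 CACCC box. The Serpine2 window was 76.8% G or C and held 6 GC boxes, of which 2 overlap by 1 base. AP-1 matches also stood in the windows of Procr and Tfpi2, and CACCC boxes in those of Procr and Tfpi2 and in both Tfpi windows. GC boxes also stood in those of Plau, Tfpi2 and 1 of the 2 Tfpi windows. No window held the TATA box. Of all 33469 windows of this length, 6.34% held an AP-1 match, 30.5% a GC box, 49.2% a CACCC box, 6.33% the NF-kB consensus and 12.9% a TATA box. A match describes these letters and is no site of binding.

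After 24 hours of IL-1b the cells had more transcript of the activator Plat, of the inhibitor Serpine2 and of the receptor Plaur, and less of the anticoagulant receptor Thbd and of tissue factor, F3. The changes were 21.4-fold for Plat, 5.48-fold for Serpine2 and 2.50-fold for Plaur upward, and 8.41-fold for Thbd and 2.32-fold for F3 downward. Tfpi and Procr read higher on both IL-1b arrays, at 1.45-fold and 1.67-fold, and did not pass the test. Plau and Tfpi2 were too dim to be tested. Fold changes are on the log2 scale of intensity plus an offset of 5.49, where the change of a dim gene comes out too small. The test was limma over all 18625 probe sets bright enough to be tested, with Benjamini-Hochberg adjustment and a threshold of 0.05, and a gene stood by its brightest tested probe set.

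By this test 3 of the 7 genes tested rose, 2 fell and 2 did not pass. Over all 10000 genes tested 7.19% rose and 8.13% fell, or 15.3% in either direction. By probe set, 3 of the 10 tested were higher, 4 were lower and 3 did not pass, against 6.32% higher, 7.11% lower and 13.4% in either direction of all 18625. The median log2 fold change was 0.74 over the 7 genes and -0.01 over all genes. The genes and the other lists were chosen with results of these arrays known, so these shares describe the genes and support no statement about the pathway.

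**Figure D1:**
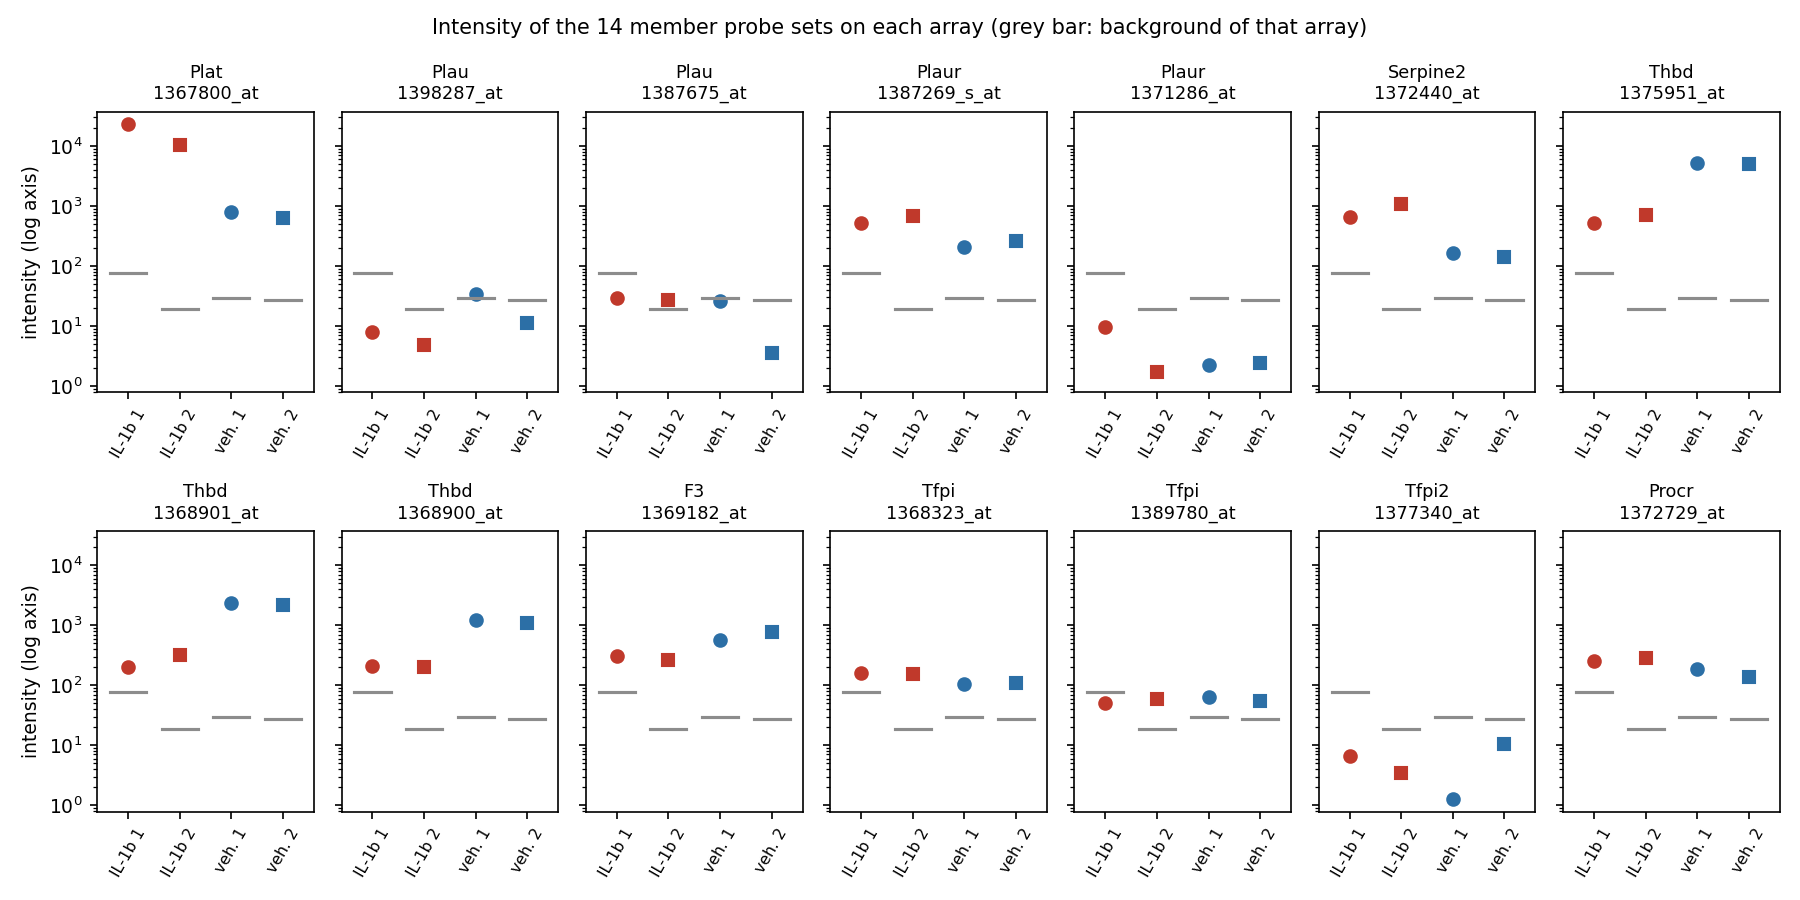
Intensity (log axis) of each of the 14 probe sets on the IL-1b arrays (red) and the vehicle arrays (blue), with circles for replicate 1, squares for replicate 2 and a grey bar at each array's background. Plat, the brighter Plaur probe set and Serpine2 stand higher on both IL-1b arrays, all 3 Thbd probe sets and F3 lower, and Plau, the dimmer Plaur probe set and Tfpi2 lie near or below background.

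Plat encodes tissue plasminogen activator, the secreted protease that is most active when bound to fibrin. Its probe set 1367800_at read 23088 and 10220 on IL-1b replicates 1 and 2, against 792 and 642 on vehicle replicates 1 and 2. Both IL-1b arrays were far above both vehicle arrays. The IL-1b arrays differed from each other by 2.26 times, close to the ratio given above for probe sets at 10000 or more. The log2 fold change was 4.42 ± 0.36 (SE, adjusted p = 3.9e-04), or 21.4-fold with a 95% interval of 11.9 to 38.4, and it ranked 40 among increases of the 10000 genes. Without IL-1b replicate 1 the log2 fold change of Plat was 3.83, and without IL-1b replicate 2 it was 5.01.

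Plau encodes urokinase, the other plasminogen activator, which acts mainly at the cell surface. Its probe set 1387675_at read 28.7 and 26.6 with IL-1b, against 26.4 and 3.59 with vehicle, and 1 of these 4 values was above its array's background. The other probe set, 1398287_at, read 7.82 and 4.75 with IL-1b, against 34.2 and 11.03 with vehicle, again with 1 value above background. The first was a little higher and the second lower on both IL-1b arrays. In the fit with no filter on dim probe sets their log2 fold changes were 0.96 (95% interval -1.06 to 2.99) and -1.13 (-2.96 to 0.69), so no change of Plau was detectable in either direction at these signals.

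Plaur encodes the urokinase receptor, a protein held in the membrane by a lipid anchor. Its probe set 1387269_s_at read 511 and 683 on the IL-1b arrays, against 208 and 262 on the vehicle arrays. Plaur rose by 1.32 ± 0.22 (log2, SE, adjusted p = 0.0088), or 2.50-fold (95% interval 1.74 to 3.57). The rise missed the threshold with each array centred on its median (log2 fold change 1.11, adjusted p = 0.12) and without the intensity trend of the variance (adjusted p = 0.071). The other Plaur probe set, 1371286_at, read 9.57 and 1.69 with IL-1b and 2.22 and 2.42 with vehicle, below background on every array, and was not tested.

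Serpine2 encodes protease nexin 1, a serpin that inhibits thrombin, urokinase and tissue plasminogen activator. Its probe set 1372440_at read 654 and 1100.5 with IL-1b, against 163 and 139 with vehicle. Here IL-1b replicate 2 read higher than replicate 1, the opposite of Plat. Serpine2 rose by 2.45 ± 0.27 (log2, SE, adjusted p = 0.0015), or 5.48-fold (95% interval 3.53 to 8.52), and the log2 fold change was 2.83 and 2.08 without IL-1b replicates 1 and 2 in turn.

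Thbd encodes thrombomodulin, the thrombin receptor of the protein C pathway. Its brightest probe set, 1375951_at, read 517 and 704 on the IL-1b arrays, against 5179 and 5050 on the vehicle arrays. A second, 1368901_at, read 201 and 325 with IL-1b, against 2374 and 2200 with vehicle. The remaining probe set, 1368900_at, read 207 and 204 with IL-1b, against 1246 and 1102 with vehicle. All 3 probe sets were above background on every array and lower on both IL-1b arrays, and their intervals overlap.

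Thbd at its brightest probe set had a log2 fold change of -3.07 ± 0.18 (SE, adjusted p = 1.3e-04), or 8.41-fold lower (95% interval 6.26 to 11.3). The other probe sets gave -3.13 ± 0.23 and -2.48 ± 0.16 (adjusted p = 3.0e-04 and 1.8e-04). Thbd ranked 56 among the decreases of the 10000 genes. Over the 15 other settings of its test, the brightest Thbd probe set stayed between -3.29 and -2.85 and past the threshold.

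F3 encodes tissue factor, the membrane receptor of factor VII. Its probe set 1369182_at read 303 and 264 with IL-1b, against 572 and 768 with vehicle. The log2 fold change was -1.21 ± 0.20 (SE, adjusted p = 0.0090), or 2.32-fold lower (95% interval 1.66 to 3.23). Without vehicle replicate 2, the higher of the vehicle arrays, F3 missed the threshold (adjusted p = 0.090), as it did without the intensity trend (adjusted p = 0.074).

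Tfpi encodes the inhibitor of the complex of tissue factor and factor VII. Its brighter probe set, 1368323_at, read 161 and 156 with IL-1b, against 105 and 111 with vehicle, while 1389780_at read 50.6 and 59.0 with IL-1b, against 64.2 and 54.2 with vehicle. The first probe set read higher on both IL-1b arrays, and the second did not. Neither passed, with log2 fold changes of 0.53 (95% interval -0.12 to 1.19, adjusted p = 0.27) and -0.10 (-1.25 to 1.04, adjusted p = 0.91), so at the brighter probe set a rise of up to 2.28-fold and a small fall are both within the interval. Tfpi2 (1377340_at) read 6.71 and 3.48 with IL-1b and 1.28 and 10.4 with vehicle, below background on every array.

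Procr encodes the receptor that presents protein C to the complex of thrombin and thrombomodulin. Its probe set 1372729_at read 255 and 286 with IL-1b, against 187 and 137 with vehicle. Procr had a log2 fold change of 0.74 ± 0.25 (SE, adjusted p = 0.10), a 1.67-fold difference with a 95% interval of 1.11 to 2.50 before adjustment over all probe sets. It passed without IL-1b replicate 1 (0.82, adjusted p = 0.010) and without IL-1b replicate 2 (0.66, adjusted p = 0.037), where more probe sets pass in general, and not without vehicle replicate 1 (adjusted p = 0.21) or 2 (adjusted p = 0.67). Thbd and Procr, which both take part in the activation of protein C, thus read in opposite directions, and only the fall of Thbd passed.

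**Figure D2:**
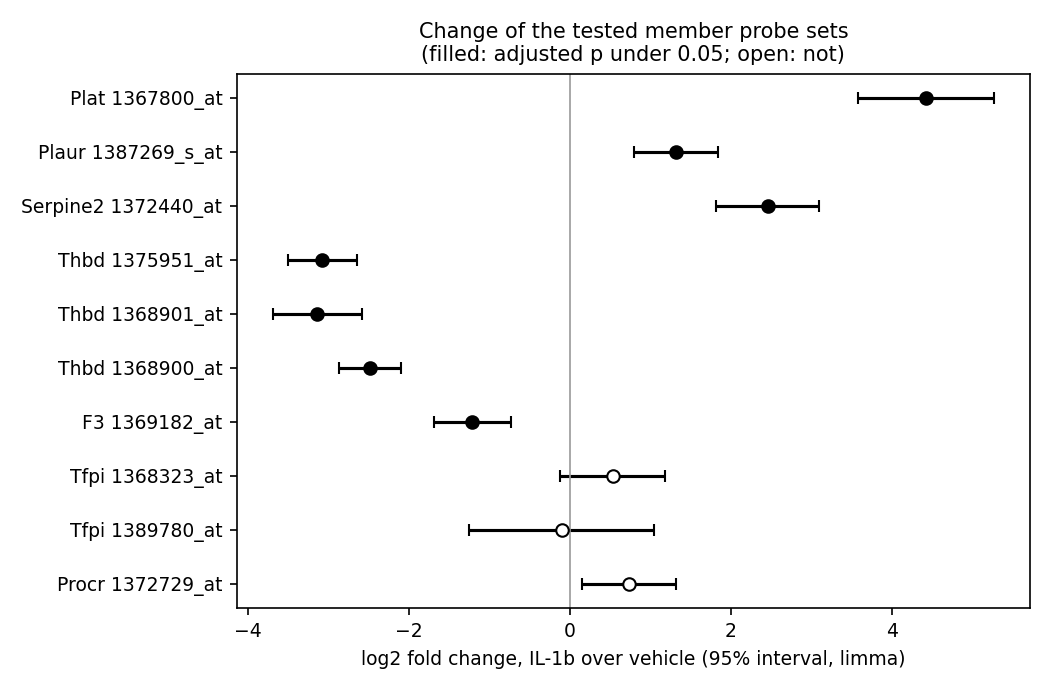
Log2 fold change of IL-1b over vehicle with its 95% interval from limma for the 10 probe sets tested, filled where the adjusted p was under 0.05. Plat lies highest at 4.42 and the Thbd probe sets lowest at -3.13 to -2.48, while Tfpi and Procr are open.

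The other genes of these pathways were taken from a list of 69, of which 59 had a probe set with 1 symbol and 29 were bright enough to be tested. Of these 29, 8 rose, 4 fell and 17 did not pass, with a median log2 fold change of 0.13. Over all 10000 genes tested, the share that rose was 7.19% and the share that fell 8.13%, the background for the counts by role that follow. The counts of 8 higher and 4 lower moved when an array was left out, as did the number of calls over all probe sets. Most circulating factors were dim, with 10 of 14 measured coagulation and fibrin genes not tested, among them F2, F5, F9, F10, Fga, Fgb and Fgg. Plg, plasminogen itself, read 42.4 and 5.98 with IL-1b and 32.0 and 31.1 with vehicle and was not tested either.

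Among genes listed for the activation and binding of plasminogen, surface receptors and proteases alike, 1 of 6 tested rose. S100a10, which with Anxa2 forms a surface receptor for plasminogen and Plat, read 6978 and 6586 with IL-1b, against 3049 and 3076 with vehicle. It rose by 1.14 ± 0.15 (log2, SE, adjusted p = 0.0036). S100a10 missed the threshold without vehicle replicates 1 and 2 (log2 fold change 1.14 and 1.15), and without the intensity trend (adjusted p = 0.051). Its partner Anxa2 read 23984 and 10594 with IL-1b, against 9066 and 8475 with vehicle. The difference of 0.86 (log2) missed the threshold (adjusted p = 0.19). A dimmer Anxa2 probe set read 157 and 99.9 with IL-1b, against 33.0 and 39.3 with vehicle. Its difference of 1.66 (log2) missed the threshold too (adjusted p = 0.059). Plgrkt, a plasminogen receptor of the membrane, did not pass at -0.58 (adjusted p = 0.057).

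Of 4 inhibitors tested, 2 rose and 1 fell. Serpinb2, the plasminogen activator inhibitor type 2, read 420 and 569 with IL-1b, against 40.1 and 23.8 with vehicle, of which 1 was above background. Serpinb2 rose by 3.76 ± 0.35 (log2, SE, adjusted p = 7.0e-04). Serping1, the C1 inhibitor, read 201 and 299.7 with IL-1b, against 83.0 and 45.5 with vehicle, and rose by 1.90 ± 0.39 (adjusted p = 0.020), though not without the intensity trend (adjusted p = 0.077). Spint2, a Kunitz-type inhibitor of membrane serine proteases, read 1350 and 1495 with IL-1b, against 2462 and 2519 with vehicle, and fell by 0.81 on the log2 scale (adjusted p = 0.011). Spint2 missed the threshold without vehicle replicates 1 and 2 (log2 fold change -0.82 and -0.79). The same held with median centring (adjusted p = 0.073) and without the intensity trend (adjusted p = 0.098).

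Among clearance receptors and partners of the urokinase receptor, 2 of 8 genes tested rose and 1 fell. Vldlr, which like Lrp1 takes up complexes of proteases with serpins, read 608 and 427 with IL-1b, against 4556 and 4761 with vehicle. Vldlr fell by 3.18 on the log2 scale (SE 0.19, adjusted p = 1.4e-04), and its other 3 probe sets gave -3.27 to -2.74, each past the threshold. Lrp1 read 3029 and 3324 with IL-1b, against 1884 and 2234 with vehicle, and rose by 0.63 ± 0.16 (adjusted p = 0.043). That call of Lrp1 was lost without vehicle replicate 1 (log2 fold change 0.51) or 2 (0.75). It was also lost with median centring (adjusted p = 0.51) and without the intensity trend (adjusted p = 0.17). Itga5, the fibronectin receptor chain that associates with the urokinase receptor, read 3184 and 2946 with IL-1b, against 568 and 638 with vehicle, and rose by 2.34 ± 0.14 (adjusted p = 1.5e-04).

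The protein C group holds protein S and its relative Gas6 with their receptor kinases, and 1 of 4 genes tested rose and 1 fell. Gas6, a vitamin K-dependent ligand of these kinases, read 1245 and 1377 with IL-1b, against 7623 and 7528 with vehicle. It fell by 2.53 on the log2 scale (SE 0.15, adjusted p = 1.3e-04), with its other probe sets at -1.73 and -1.21. Axl, a receptor of Gas6, read 5843 and 4932 with IL-1b, against 2086 and 2073 with vehicle, and rose by 1.37 ± 0.16 (adjusted p = 0.0019). Protein S, Pros1, read 470 and 493 with IL-1b and 402 and 479 with vehicle a difference of 0.13 (log2, 95% interval -0.27 to 0.54) that missed the threshold.

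Of 4 coagulation and fibrin genes tested, Tgm2 rose and Vkorc1 fell. Tgm2, a transglutaminase that crosslinks matrix proteins, read 558 and 579 with IL-1b, against 194 and 224 with vehicle (log2 fold change 1.42 ± 0.18, SE, adjusted p = 0.0029). After median centring Tgm2 missed the threshold (adjusted p = 0.064). Vkorc1, which recycles vitamin K for the carboxylation of clotting factors, read 1089 and 1115 with IL-1b, against 2300 and 2208 with vehicle (-1.03 ± 0.14, adjusted p = 0.0034). Its adjusted p without the intensity trend was 0.060. The thrombin receptor F2r read 2325 and 2223 with IL-1b, against 3160 and 2960 with vehicle, and did not pass (-0.43, adjusted p = 0.10), though it did with quantile normalization (adjusted p = 0.027) and without IL-1b replicate 1 or 2 (adjusted p = 2.6e-05 and 3.2e-04). Sdc4, a heparan sulfate proteoglycan, read 13710 and 6843 with IL-1b, against 4206 and 4179 with vehicle, and rose by 1.21 ± 0.31 with an adjusted p of 0.049, at the threshold. Without vehicle replicates 1 and 2 the adjusted p of Sdc4 was 0.13 and 0.17, and without IL-1b replicates 1 and 2 its log2 fold change was 0.71 and 1.71.

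**Figure D3:**
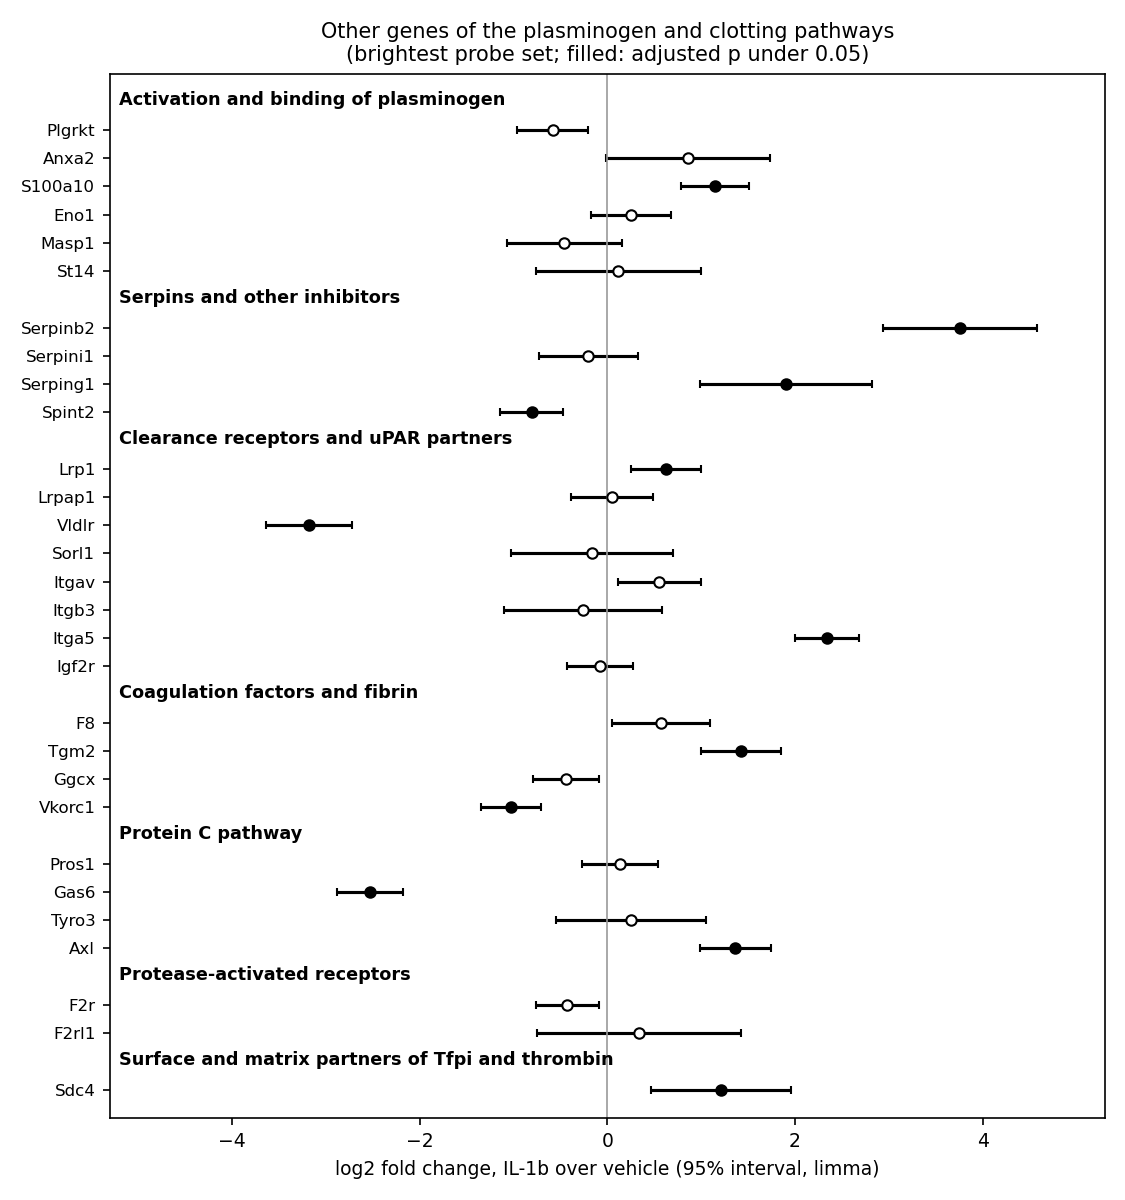
Log2 fold change of IL-1b over vehicle with 95% intervals for the 29 other pathway genes tested, by role, filled where the adjusted p was under 0.05. Serpinb2 (3.76) and Itga5 (2.34) lie farthest to the right, and Vldlr (-3.18) and Gas6 (-2.53) farthest to the left.

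The genes with patterns most like Plat and Thbd were taken by the root mean square distance of the log2 values on the 4 arrays, each minus its vehicle mean. Nearest to Plat were Tgm1, Cx3cl1 and Gpnmb, at distances of 0.28, 0.28 and 0.35. Cx3cl1 and Gpnmb had log2 fold changes of 4.06 and 4.49. Tgm1 read 293 and 205 with IL-1b, against 6.40 and 3.44 with vehicle, both below background, so its change is given as at least 8.73-fold, with vehicle set at background, and its place nearest to Plat rests on values below background. Nearest to Thbd were Thrb, Selenop and Man2a1, at 0.12, 0.13 and 0.13, with log2 fold changes of -3.01, -3.18 and -2.92. With 4 arrays in 2 groups such likeness mostly says that the size of the change was alike.

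**Figure D4:**
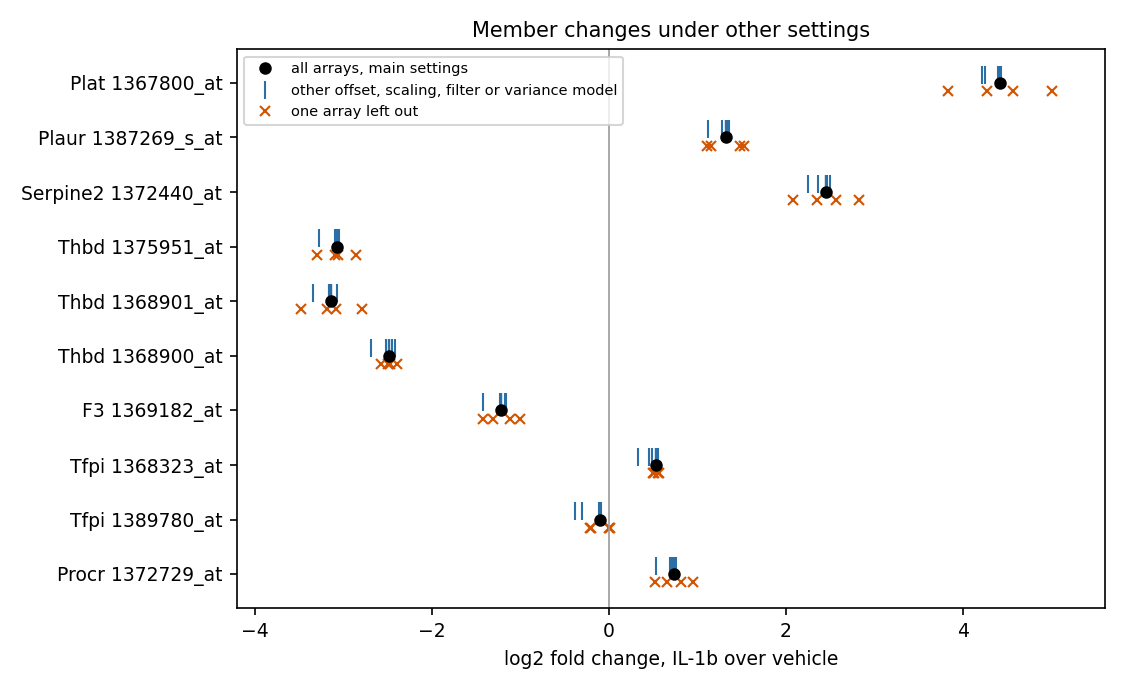
Log2 fold change of each tested probe set of the 9 genes with all arrays (black), under other offsets, scalings, filters and variance models (blue bars) and with 1 array left out (orange crosses). Plat moved most, between 3.83 and 5.01, and the dimmer Tfpi probe set was the one that crossed 0.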

How the data were processed

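Total RNA of 4 samples was labelled with biotin and put on Affymetrix arrays for rat, as the labels' protocols record. The deposited values are linear intensities, 1 per probe set; MAS5 is the tool that the submitters' processing notes name, and its version is not given in the sources used here. Each array's mean without the lowest and highest 2% of values was 250.1. An offset of 5.49 (the 10th percentile) was added before log2, the 57 controls were dropped, and probe sets with a mean log2 value at or above the 40th percentile (5.37) were tested with limma 3.58.1 in R 4.3.3 (lmFit, eBayes with an intensity trend, 2 residual and 4.91 prior degrees of freedom). With 4 arrays, their number limits precision. The fit was also run on simulated data with known changes. Their noise was independent between arrays and took the fit's own variances. That run therefore does not cover an array that differs from the rest, as IL-1b replicate 1 did in its controls.

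Symbols came from the platform annotation, and 9780 probe sets it does not list are unnamed here. Named are the 9 genes, pathway genes past the threshold, Plg, F2r and Lrp1, and nearest patterns; other pathway and marker genes were named after their values were seen, and the background rule was set then too. The rule also names 1 more gene whatever its value, which is not reported here. Members, lists and rules were chosen with earlier results of these data known. Alternatives were other offsets, scalings, filters, variance models, thresholds and probe set choices, the replicate number as a block, and leaving out each array. With an array left out, the remaining sample of that group took its spread from the other group.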

Additional observations from a re-analysis of the deposited data

How the results depend on the processing

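Over 23 probe sets of the genes described and their alternatives, 309 values kept their direction and side of the threshold, 29 lost the call, 5 gained it and 1 reversed. The reversed value was that of the dimmer Tfpi probe set, -0.10 in all arrays and 0.0096 without vehicle replicate 1, with -0.21 to 0.0096 over the arrays left out in turn. The 2503 probe sets past the threshold became 1634 with median centring, 963 without the intensity trend, 1222 at an adjusted p of 0.01, and 1357 to 8666 with an array left out. Median centring shifted the median log2 fold change of all probe sets by -0.20, and 34.4% of calls were then higher, against 47.1%. Without the intensity trend 2 of the 9 genes rose (Plat, Serpine2) and 1 fell (Thbd), and 4 pathway genes rose and 2 fell. At an adjusted p of 0.01, 5 pathway genes rose. With an array left out, 3 to 4 of the 9 genes rose and 1 to 2 fell, and 5 to 11 pathway genes rose and 3 to 8 fell. With the replicate number as a block 3276 probe sets passed, 3 of the 9 genes rose and 2 fell, and 8 pathway genes rose and 5 fell; the labels give no sign that a number pairs samples, and deviations of same-numbered arrays correlated at 0.091. The cause of these shifts was not tested. Dim signal limits Plau, Tfpi2, 1 Plaur probe set and 30 pathway genes.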
